A study of Mus musculus with 6 samples.

Results

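Perforin and the granzymes are the proteins with which cytotoxic lymphocytes kill, and their genes were described here in mouse double negative T (DNT) cells cultured with or without interleukin 33 (IL-33). The family consisted of 10 genes, Prf1 and the 9 granzymes Gzma, Gzmb, Gzmc, Gzmd, Gzme, Gzmf, Gzmg, Gzmk and Gzmm, chosen by symbol and matched to Ensembl gene identifiers in a count table that listed 26128 genes. All 10 were listed, and all 10 passed the filter on low counts that left 14671 genes for testing. These cells, CD3+NK1.1-CD4-CD8- by their label, were made in vitro from CD4+CD25- T cells of adult C57BL/6 mice by coculture with mature dendritic cells of DBA/2 mice and interleukin 2, and were then sorted. Both groups were restimulated for 48 h with beads carrying antibodies to CD3 and CD28, 3 samples without IL-33 (control) and 3 samples with IL-33 at 50 ng/ml. Bulk RNA was sequenced from the whole cultures, so that a value is an average over converted cells and a change in the RNA per cell cannot be told apart from a change in the fraction of cells that express the gene. One of the questions asked of these cells was whether IL-33 alters genes of the cytotoxic programme.

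Perforin, encoded by Prf1, is a pore-forming protein stored with the granzymes in secretory lysosomes and released towards a bound target cell. Granzymes are serine proteases that enter the target through its pores. Granzyme B cleaves after aspartate and activates caspases, granzyme A and granzyme K are tryptases, and granzyme M cleaves after residues such as leucine and methionine. Granzymes C to G are rodent relatives of granzyme B that arose by duplication next to it and are expressed by strongly activated killer cells. Converted DNT cells are known as regulatory cells that kill other lymphocytes through perforin and granzymes.

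The libraries held 20256342 to 22336050 counts each, and no pair of replicates agreed within sampling noise. The T cell genes fixed as markers were present in every library, with summed levels of 2378 to 2560 CPM (counts scaled to a common library total) in control and 2455 to 2580 CPM with IL-33. Cd4 was almost absent, at 0.934 ± 0.183 CPM (SD, n = 3) in control and 0.373 ± 0.143 CPM with IL-33. Against the CD8- label, Cd8a was at 545 ± 13.6 CPM in control and 400 ± 9.15 CPM with IL-33. Cd8b1, the partner chain, was at 9.68 ± 1.65 and 16.3 ± 2.07 CPM. Of the 6 natural killer cell markers, Ncr1, Klra8 and Klra4 failed the filter on low counts, and the summed level of the list was 415 to 418 CPM in control and 381 to 403 CPM with IL-33, most of it Eomes, which T cells also express. Klrb1c, which encodes the NK1.1 antigen that the label calls negative, was at 33.5 ± 2.57 CPM in control and 25.6 ± 1.15 CPM with IL-33 (log2 fold change -0.39, edgeR adjusted p = 7.1e-06), and Klre1 was at 9.66 ± 1.05 and 9.33 ± 0.892 CPM. All 4 gamma delta T cell markers fell with IL-33, 2 of them past both thresholds, beside 13.9% and 2.39% of all genes downwards. These 2 were Trdc, at -0.70 on the log2 scale, and Sox13, which rested on 14 to 40 counts per library. The list summed to 299 to 320 CPM in control and 259 to 269 CPM with IL-33. Most of it was Tcrg-C2, at 233 ± 8.59 and 207 ± 3.76 CPM. Dendritic and myeloid markers summed to 56.5 to 59.6 CPM and 28.7 to 31.5 CPM, nearly all of it Itgax (-1.07), which activated T cells also express, and Lyz2, Csf1r, Flt3, Adgre1 and H2-Aa failed the filter. B cell markers summed to at most 6.35 CPM. The single marker genes given here, and those of mast cells further on, were picked after their values were seen. The part of these cells in the changes of the granzymes was not tested.

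Granzyme B and granzyme A messages were the 2 most abundant of all 26128 genes by share of counts. Gzmb held 1.61% and Gzma 1.58% of all counts on average over the 6 libraries, ahead of the translation factor gene Eef1a1 with 1.33%. Gzmd and Gzmc ranked 11 and 12 in the same order. Together the 10 genes held 4.63%, 4.70% and 4.74% of all counts in the 3 control libraries and 4.38%, 4.38% and 4.34% in the 3 IL-33 libraries. The share was thus 4.69 ± 0.0523% (SD, n = 3) in control and 4.37 ± 0.0234% with IL-33, a difference of -0.325 percentage points with no overlap between the groups. A sum over chosen genes was given no test. Gzma and Gzmb made up most of it, with 3.30 ± 0.0248% of all counts in control and 3.08 ± 0.00682% with IL-33. Gzmc to Gzmg together held 1.20 ± 0.0430% and 1.09 ± 0.0190%. Prf1 alone held 0.184 ± 0.00589% and 0.196 ± 0.00587%.

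To compare the genes with each other, counts were divided by the length of each gene's merged exons and scaled to sum to the same total in each library (TPM). Gzma was the first and Gzmb the second of all genes per length in every library. The mean over the 6 libraries was 47614 ± 1231 TPM for Gzma and 34028 ± 1809 TPM for Gzmb, which is 1.40 times lower. Gzmc followed at 11589 ± 860 TPM, 2.94 times below Gzmb. Gzmd at 10844 ± 811 TPM and Gzmg at 10021 ± 426 TPM came next. Gzmc and Gzmd overlapped between libraries over all 6, as did Gzmd and Gzmg, although both pairs stood apart among the control libraries. Compared within a library, Gzmc was above Gzmd in every one. Gzmd was above Gzmg except in IL-33 replicate 3, at 9615 against 9653 TPM, so that their order was not the same in every library. Gzme stood at 3962 ± 254 TPM, Prf1 at 2227 ± 95.8 TPM and Gzmf at 1216 ± 116 TPM, and the libraries of these 3 genes did not overlap. Gzmk, at 29.7 ± 2.08 TPM, lay 40.9 times below Gzmf. Gzmm, at 2.73 ± 0.808 TPM, was the lowest and rested on 17 to 38 counts per library. Perforin RNA was therefore the seventh of the 10 per length, below 6 of the granzymes and between ranks 35 and 40 among all genes.

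**Figure D1:**
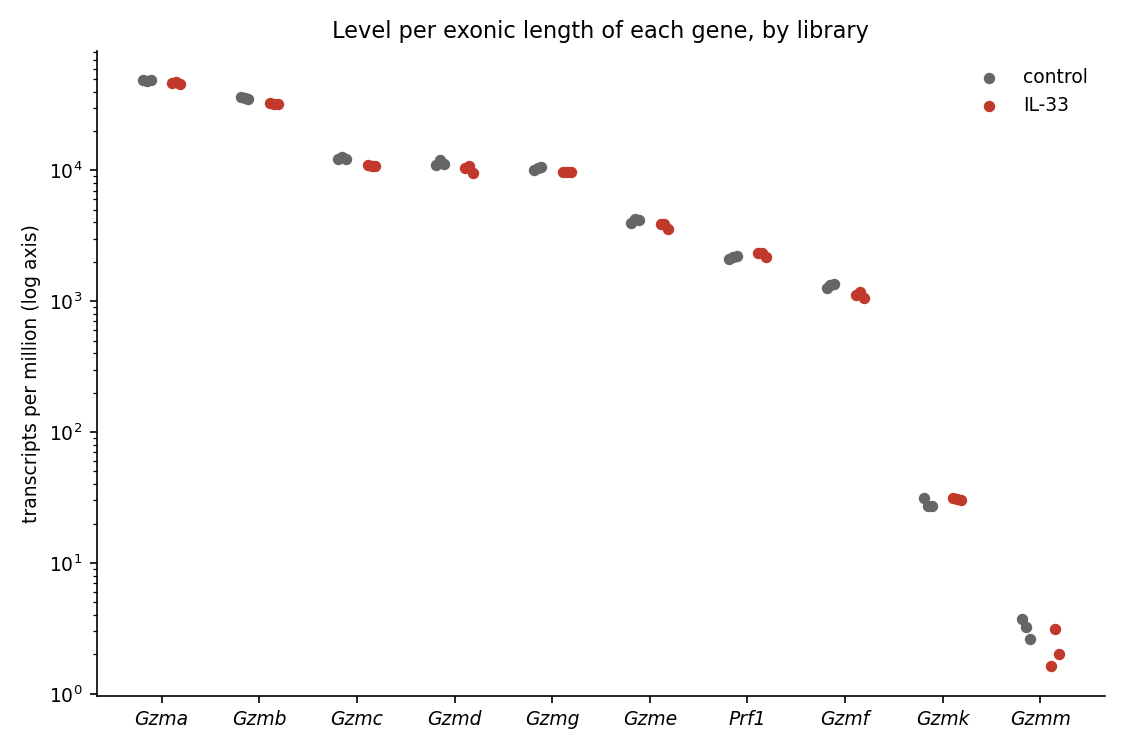
Level of each gene in TPM on a log axis, one point per library, grey for the 3 control and red for the 3 IL-33 libraries, in order of the mean over all 6. Gzma and Gzmb stand on top, Gzmc, Gzmd and Gzmg lie close together below them, and Gzmk and Gzmm lie far below the other 8 genes.

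The comparison of IL-33 with control showed small changes. With the quasi-likelihood test of edgeR and p-values adjusted after Benjamini and Hochberg over the 14671 genes, 7 of the 10 genes changed at an adjusted p under 0.05, 1 upwards (Prf1) and 6 downwards (Gzma, Gzmb, Gzmc, Gzme, Gzmf and Gzmg). Gzmd, Gzmk and Gzmm did not pass. Of all genes tested, 27.5% were called by the same rule, 13.6% higher and 13.9% lower with IL-33. Calls were more frequent among abundant genes, 51.6% of the 2272 tested genes with at least 100 CPM, and 7 of the 8 family genes above that level were among them. The median log2 fold change was -0.12 over the 10 genes and -6.3e-04 over all genes tested. None of the 10 passed both thresholds of the study, an adjusted p under 0.05 and a change of at least 1.5-fold, which 4.87% of all genes passed, 2.47% higher and 2.39% lower. That count was also 0 with the unadjusted p under 0.05, with DESeq2 and with limma-voom, which called 22.5% and 26.2% of all genes at an adjusted p under 0.05. The 95% interval of the log2 fold change lay within the 1.5-fold limits for 9 of the 10 genes, the exception being Gzmm. CPM values of the groups did not overlap for 5 genes, 1 higher and 4 lower with IL-33, against 38.9% of all genes tested. As plain shares of all counts, the groups of 7 genes did not overlap, all of them lower with IL-33 (Gzma to Gzmg), where 21.8% of all genes separated downwards and 17.3% upwards, while Prf1, Gzmk and Gzmm overlapped.

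**Figure D2:**
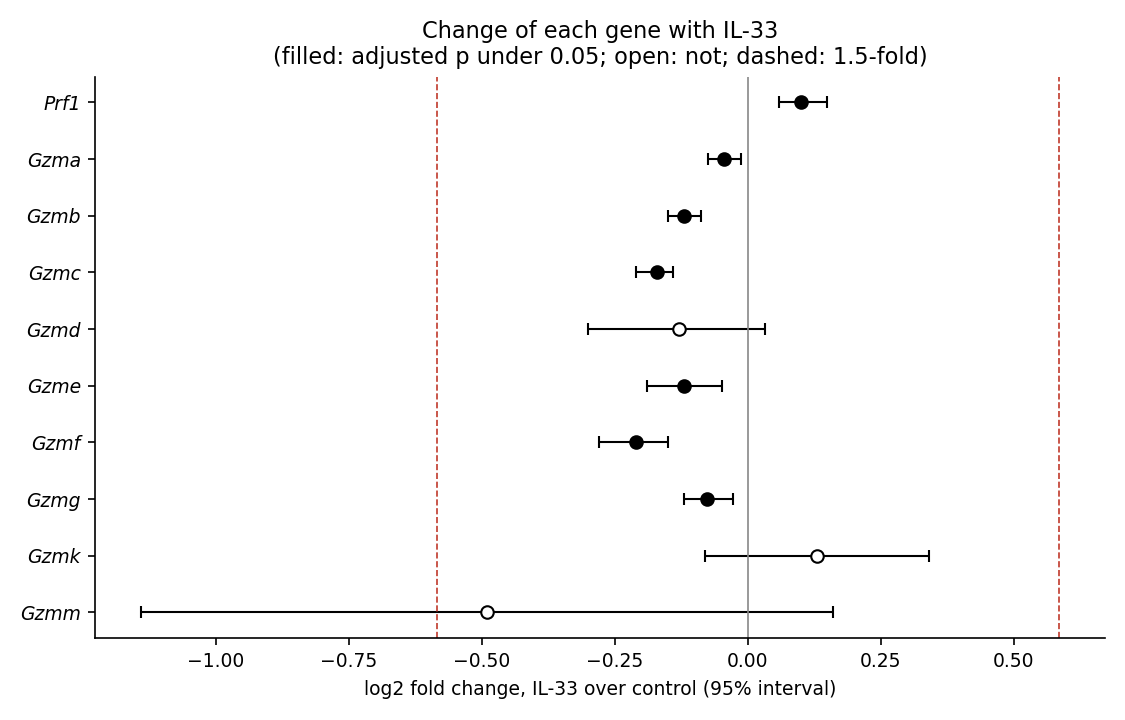
Log2 fold change of each gene, IL-33 over control, with its 95% interval from edgeR. Filled points passed an adjusted p of 0.05, open points did not, and the dashed lines mark 1.5-fold, which only the interval of Gzmm crosses. Prf1 lies to the right of 0 and the 6 filled granzymes to the left.

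Prf1 (ENSMUSG00000037202, chr10:61297833-61304680 on GRCm38) was the 1 family gene that rose. Its control libraries were at 1767, 1844 and 1888 CPM and its IL-33 libraries at 1997, 2014 and 1898 CPM. All IL-33 values lay above all control values, although IL-33 replicate 3 exceeded control replicate 3 by little, and as a plain share of all counts this pair was reversed, 0.189% against 0.190%. The mean went from 1833 ± 61.6 to 1970 ± 62.4 CPM (SD, n = 3), a log2 fold change of 0.10 (SE 0.023, adjusted p = 2.3e-04 by edgeR) or 7.45% with a 95% interval of 4.10 to 10.9%.

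Gzma (ENSMUSG00000023132, chr13:113093825-113100981), the gene of the tryptase granzyme A, was at 15929, 15882 and 16386 CPM in control and at 15577, 15653 and 15519 CPM with IL-33. Every IL-33 library was lower, by a small margin. The log2 fold change was -0.044 (SE 0.015, edgeR adjusted p = 0.0233), with a 95% interval of -5.04 to -0.920%. Without control replicate 3, its highest library, the value was -0.030 with an adjusted p of 0.248 by edgeR. It also missed the threshold when any 1 IL-33 library was left out, with adjusted p of 0.0680 to 0.185 by edgeR.

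Gzmk (ENSMUSG00000042385, chr13:113171608-113225908), the other tryptase, lies near Gzma on the same strand. It was at 14.2, 12.4 and 12.5 CPM in control and at 14.5, 14.2 and 14.0 CPM with IL-33, and the groups overlapped. The log2 fold change was 0.13 (SE 0.11, edgeR adjusted p = 0.405), with an interval from -5.48 to 26.3%. Its gene body spans Esm1 on the other strand without sharing exons, and Esm1 had 384 to 485 counts per library. Esm1 had a log2 fold change of 0.031 (SE 0.090).

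Gzmb (ENSMUSG00000015437, chr14:56258838-56262260) lies at the end of the granzyme cluster described below. Control was at 16833, 16803 and 16756 CPM and IL-33 at 15588, 15359 and 15495 CPM. The 2 groups were far apart beside their spread. The log2 fold change was -0.12 (SE 0.015, edgeR adjusted p = 2.1e-10), a change of -7.84% from a mean of 16798 ± 39.0 to 15481 ± 115 CPM (SD, n = 3).

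Gzmm (ENSMUSG00000054206, chr10:79689020-79695261) had 38, 32 and 28 counts in control and 17, 32 and 22 counts with IL-33. The groups overlapped. The log2 fold change of -0.49 (SE 0.33, edgeR adjusted p = 0.288) had an interval from -54.7 to 12.1%, so that a change of 1.5-fold was not detectable at this depth. The value was -0.30 without IL-33 replicate 1 and -0.79 without IL-33 replicate 2.

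**Figure D3:**
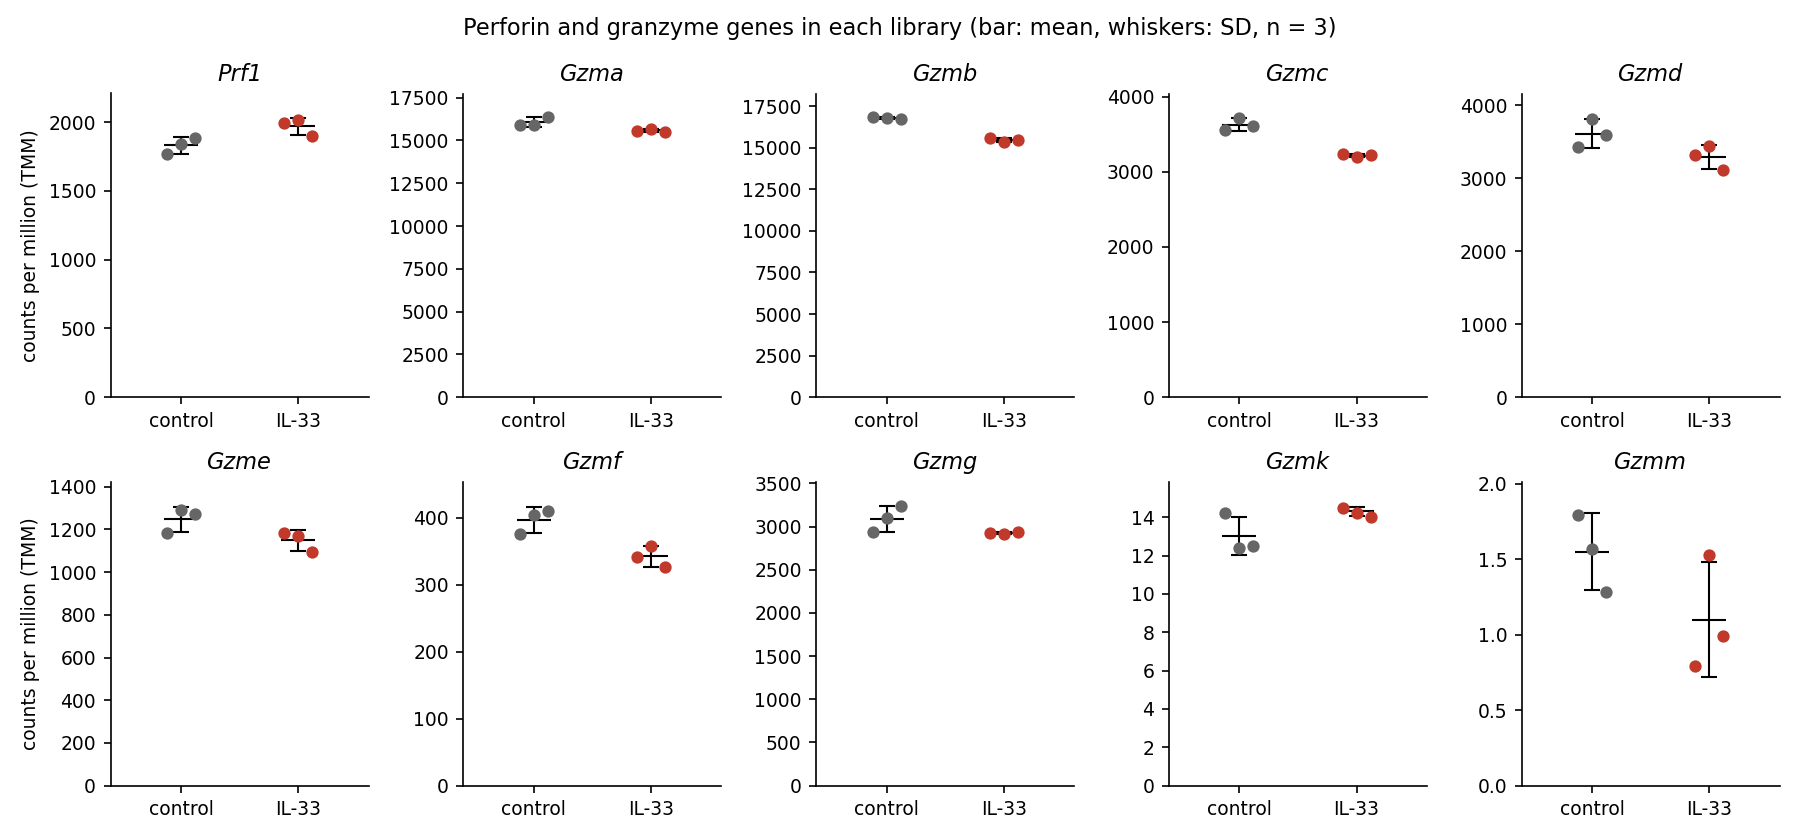
CPM of each of the 10 genes with TMM scaling, one point per library, with the mean and SD (n = 3) of each group, every axis starting at 0. Gzma, Gzmb, Gzmc and Gzmf separate fully downwards and Prf1 upwards, while Gzmd, Gzme, Gzmg, Gzmk and Gzmm overlap between groups.

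Gzmc to Gzmg lie beside Gzmb in a cluster of 144635 bases on chromosome 14 (Gzme, Gzmd, Gzmg, Gzmf, Gzmc and Gzmb from start to end, all on the minus strand), which also holds Gzmn. Their coding sequences in GENCODE were 71.7 to 93.3% identical to each other and 65.5 to 76.3% to Gzmb, with Gzmd and Gzme the closest pair. Their promoters were alike too. RefSeq promoter sequences (GRCm38.p6, 250 bases before to 50 after the start) matched all 10 family genes, and those of Gzmc to Gzmg were 73.5 to 93.4% identical to each other but only 44.3 to 49.5% to that of Gzmb. The 5 cluster promoters shared an identical run of 20 bases, found in 5 of 32851 promoters, which began 45 to 70 bases before the RefSeq start. They are shown because these 5 genes lie together and their promoters are near copies. Levels of the 5 ran from 11589 TPM (Gzmc) to 1216 TPM (Gzmf), and Gzmd was lower by the fit without being called. The run was not found in the promoters of Gzma and Gzmb, which were higher and also fell. Its part in these values was not tested. In the first 5 sequences, the first capitals mark the 8 bases at the place of the cyclic AMP response element TGACGTCA, 4 bases before the run, and the second capitals mark the shared run. In the Gzmb promoter the capitals mark RUNX (TGTGGT) and AP-1 (TGANTCA) motifs. The windows are chr14:56234659-56234762 for Gzmc, chr14:56132599-56132702 for Gzmd, chr14:56120632-56120735 for Gzme, chr14:56211434-56211537 for Gzmf, chr14:56159601-56159704 for Gzmg and chr14:56262335-56262454 for Gzmb, all read 5′ to 3′ on the minus strand.
Gzmc: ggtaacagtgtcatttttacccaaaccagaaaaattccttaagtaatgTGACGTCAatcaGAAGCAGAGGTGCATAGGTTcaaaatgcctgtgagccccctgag
Gzmd: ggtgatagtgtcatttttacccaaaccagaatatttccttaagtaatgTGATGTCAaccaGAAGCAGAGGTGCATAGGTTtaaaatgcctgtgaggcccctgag
Gzme: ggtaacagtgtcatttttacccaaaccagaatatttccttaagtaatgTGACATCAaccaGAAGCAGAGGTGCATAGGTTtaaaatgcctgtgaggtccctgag
Gzmf: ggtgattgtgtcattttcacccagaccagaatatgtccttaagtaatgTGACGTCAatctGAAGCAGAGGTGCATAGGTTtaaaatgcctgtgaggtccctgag
Gzmg: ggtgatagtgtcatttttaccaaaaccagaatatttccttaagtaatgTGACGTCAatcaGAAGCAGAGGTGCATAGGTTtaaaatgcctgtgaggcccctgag
Gzmb: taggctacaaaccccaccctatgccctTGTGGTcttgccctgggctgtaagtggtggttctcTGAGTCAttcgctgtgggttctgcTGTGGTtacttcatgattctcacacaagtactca

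Counted from 1 at the 5′ end of TGACGTCA, the octamer was intact in Gzmc, Gzmf and Gzmg and carried C4T in Gzmd and G5A in Gzme. The full TGACGTCA was found on either strand in 1.79% of all 32851 promoters. The AP-1 motif was found in the Gzmb promoter alone among these genes and in 7.81% of all promoters. The RUNX motif was found for 9 of the 10 family genes, all but Gzmk, and in 16.8% of all promoters. The promoters of Gzmc to Gzmg are near copies, so that their matches are not separate ones. A STAT motif (TTCNNNGAA) was found in the promoters of Gzmb, outside the stretch shown, and Gzmm and in 8.30% of all promoters, and the NF-kB motif in that of Gzmk and in 8.46%. All motifs were searched on both strands, and no 2 of them can match the same letters in full. A match describes letters in this window and was not tested as a binding site.

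Within the cluster, Gzmc (ENSMUSG00000079186, chr14:56231441-56234656) and Gzmf (ENSMUSG00000015441, chr14:56205263-56211417) fell most clearly. Gzmc was at 3552, 3717 and 3613 CPM in control and at 3231, 3199 and 3218 CPM with IL-33, without overlap. Its log2 fold change was -0.17 (SE 0.019, edgeR adjusted p = 9.4e-13), or -11.3%. Gzmf was at 375, 404 and 410 CPM in control and at 341, 358 and 327 CPM with IL-33, also without overlap. Its log2 fold change of -0.21 (SE 0.032, edgeR adjusted p = 2.2e-07), or -13.8%, was the largest of the called family genes.

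The other 3 cluster genes overlapped between groups in CPM. Gzme (ENSMUSG00000022156, chr14:56117626-56120625) was at 1182, 1290 and 1273 CPM in control and at 1184, 1170 and 1095 CPM with IL-33, with a log2 fold change of -0.12 (SE 0.034, edgeR adjusted p = 0.0138). Control replicate 1 lay at the level of the upper IL-33 libraries. Gzmg (ENSMUSG00000040284, chr14:56156582-56159579) was at 2933, 3100 and 3235 CPM in control and at 2930, 2917 and 2943 CPM with IL-33, with a log2 fold change of -0.076 (SE 0.024, edgeR adjusted p = 0.0139). That call was lost when control replicate 2 or 3 or IL-33 replicate 1 or 2 was left out, with adjusted p of 0.0704 to 0.191 by edgeR, and without control replicate 3 the value moved to -0.042. Gzmd (ENSMUSG00000059256, chr14:56129556-56132608) had the largest standard error of the 8 abundant genes. It was at 3425, 3820 and 3596 CPM in control and 3326, 3440 and 3109 CPM with IL-33. Its log2 fold change of -0.13 (SE 0.061) had an adjusted p of 0.209 by edgeR and of 2.2e-04 by limma-voom, so that the call depended on the tool. Summed over Gzmc to Gzmg, the share of all counts was 1.16%, 1.24% and 1.22% in control and 1.09%, 1.10% and 1.06% with IL-33.

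Because the cluster genes are near copies, reads could have been divided between them. Of all stretches of 50 bases in the transcript, 78.1% were found in no other gene for Gzmd, 79.4% for Gzme, 80.2% for Gzmg, 80.6% for Gzmf and 95.9% for Gzmc. For Prf1, Gzma, Gzmb, Gzmk and Gzmm every such stretch was unique. At 100 bases the lowest value was 93.3%, for Gzmf. The stretches that Gzmf shares at 50 bases also include Gm4022, an antisense gene that overlaps its exon at chr14:56206909-56207059 on the other strand and had 53 to 78 counts per library. No source used here gives the read length or the handling of strand and of multiply matching reads, so that the separate values of Gzmd, Gzme, Gzmf and Gzmg are less certain than those of Gzma, Gzmb and Prf1.

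Ratios of counts within a library do not depend on scaling between libraries. The ratio of Gzmb to Prf1 counts was 9.53, 9.11 and 8.87 in control and 7.81, 7.63 and 8.16 with IL-33, a mean of 9.17 ± 0.332 and 7.86 ± 0.273 (SD, n = 3). The ratio of Gzma to Gzmb counts was 0.946, 0.945 and 0.978 in control and 0.999, 1.02 and 1.00 with IL-33. Perforin RNA was thus higher relative to Gzmb in every IL-33 library than in any control library. This was fixed by the CPM values, where Prf1 separated upwards and Gzmb downwards, and adds no support. The order of Gzma and Gzmb by counts changed from Gzmb first in all control libraries to values near 1. With 3 libraries against 3, an exact two-sided permutation test of a single ratio cannot go below p = 0.1. As percent of the family's own counts, Gzmb went from 36.0 ± 0.545 to 35.2 ± 0.363, Gzma from 34.4 ± 0.464 to 35.4 ± 0.168 and Prf1 from 3.93 ± 0.0822 to 4.48 ± 0.112.

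Of 51 protein coding genes within 200 kb of a member, 28 were tested, 5 rose and 4 fell, near the 27.5% called of all genes. Ctsg, the gene of the granule protease cathepsin G and the 1 neighbour that passed both thresholds, lies 15052 bases from Gzme. It was at 12.5, 15.3 and 15.1 CPM in control and at 9.44, 8.58 and 8.19 CPM with IL-33, with a log2 fold change of -0.71 (SE 0.12, edgeR adjusted p = 3.7e-07). Gzmn, a further granzyme gene that lies between Gzmg and Gzmf, moved the other way. It was at 4.81, 5.71 and 5.93 CPM in control and at 7.81, 8.30 and 7.52 CPM with IL-33. Its log2 fold change was 0.52 (SE 0.15, edgeR adjusted p = 0.00321), under 1.5-fold. The ratio of Gzmg to Gzmn counts was 566 ± 38.2 in control and 373 ± 20.2 with IL-33, with no overlap, and 93.9% of the stretches of 50 bases in Gzmn were unique to it.

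Beyond Ctsg the locus carries the mast cell proteases. Cma1, a chymase gene, was at 22.0 ± 1.88 CPM in control and 17.9 ± 2.52 CPM with IL-33, with a log2 fold change of -0.30 (SE 0.091, edgeR adjusted p = 0.00761). The Cma1 call was lost when the first control library was left out (edgeR adjusted p = 0.0932), and likewise for the first (0.0858) and second (0.0703) IL-33 library. Mcpt8, a basophil protease gene, was at 5.81 ± 0.714 and 4.32 ± 1.40 CPM (edgeR adjusted p = 0.0559). Mcpt1, Mcpt2 and Cma2 had 0 to 3 counts in each library. Summed over the 9 listed markers of mast cells and basophils, the level was 39.8 to 44.0 CPM in control and 28.6 to 33.3 CPM with IL-33. Of these markers, Fcer1a, Ms4a2, Tpsb2, Prss34 and Gata2 failed the filter on low counts. In control, Ms4a2 had 2, 3 and 6 counts, Tpsb2 1, 4 and 2 and Gata2 1, 14 and 5. Those 3 genes had no count in any IL-33 library. Fcer1a had 12, 5 and 8 counts in control and 5, 0 and 0 with IL-33. Prss34 had 3, 15 and 9 against 0, 9 and 2. Cpa3 had 196, 268 and 227 counts in control and 160, 134 and 166 with IL-33. Hdc had 27, 32 and 23 against 28, 32 and 38. The part of such cells in the values of Ctsg and Cma1 was not tested.

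**Figure D4:**
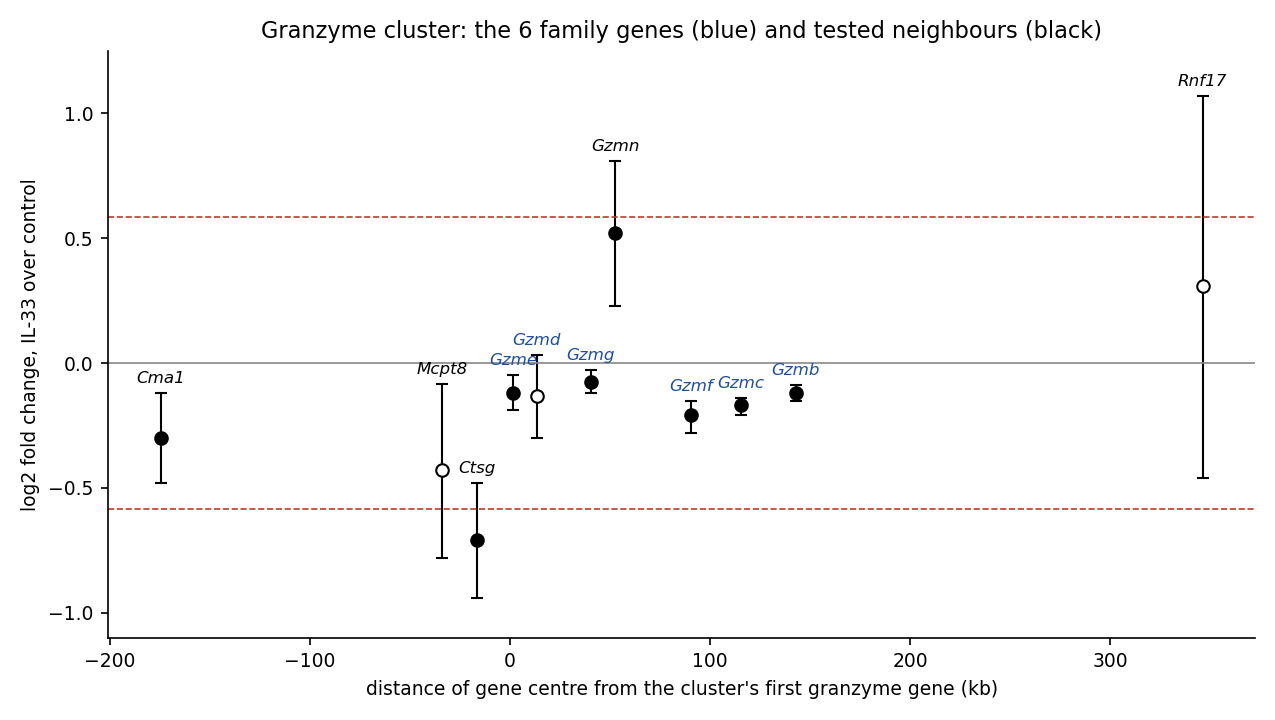
Log2 fold change with its 95% interval (vertical axis) of each tested gene in and around the chromosome 14 cluster against the distance of its centre from the first granzyme gene in kb (horizontal axis). Filled points passed an adjusted p of 0.05 and dashed lines mark 1.5-fold. The 6 granzymes named in blue lie just below 0, Gzmn between them lies at 0.52, Ctsg beside them lies at -0.71, and the open point of Rnf17 far to the right has a wide interval.

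Serpins of the B clade include the inhibitors that protect a killer cell from its own granzymes, Serpinb9 being the mouse inhibitor of granzyme B. Of the 6 inhibitor genes in the list 5 were listed and tested, and 4 rose with none falling, beside 13.6% of all genes. All 5 lie on chromosome 13 between positions 32842092 and 34002794. Whether they respond separately was not tested. At 100 CPM or more, 51.6% of all genes were called in either direction. Serpinb9b and Serpinb6b passed both thresholds upwards, beside 2.47% of all genes. The median log2 fold change of the 5 was 0.38, where that of all genes was -6.3e-04. Serpinb9b was at 77.6, 88.6 and 89.8 CPM in control and at 167, 168 and 147 CPM with IL-33. Its log2 fold change was 0.91 (SE 0.057). Serpinb6b, the most abundant of the list per length, was at 247, 266 and 270 CPM in control and at 464, 471 and 459 CPM with IL-33, with a log2 fold change of 0.83 (SE 0.031). The groups of both genes were far apart. Serpinb9 was at 426, 477 and 469 CPM in control and at 559, 552 and 545 CPM with IL-33, with a log2 fold change of 0.27 (SE 0.030). Serpinb6a, named after its values were seen as was Serpinb1a, had 0.25 (SE 0.040). Serpinb1a had 0.38 (SE 0.16, edgeR adjusted p = 0.0747) at 4.68 ± 0.855 and 6.09 ± 0.904 CPM.

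The ratios of Gzmb and Gzma counts to those of serpins restate the values above. In CPM both granzymes separated downwards and Serpinb9, Serpinb9b and Serpinb6b upwards. That each ratio was lower in every IL-33 library than in any control library was thereby fixed, and adds no support. The ratio of Gzmb to Serpinb9 counts was 39.5, 35.2 and 35.7 in control and 27.9, 27.8 and 28.4 with IL-33. For Serpinb9b, the ratio of Gzmb to it was 198 ± 16.6 in control and 96.7 ± 7.37 with IL-33 (SD, n = 3). The ratio of Gzma to Serpinb6b was 61.6 ± 2.52 and 33.5 ± 0.312. Which granzyme each of these mouse serpins binds was not measured. Of the stretches of 50 bases in Serpinb9, Serpinb9b, Serpinb6b and Serpinb6a, 99.6%, 94.4%, 96.9% and 86.9% were found in no other gene.

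**Figure D5:**
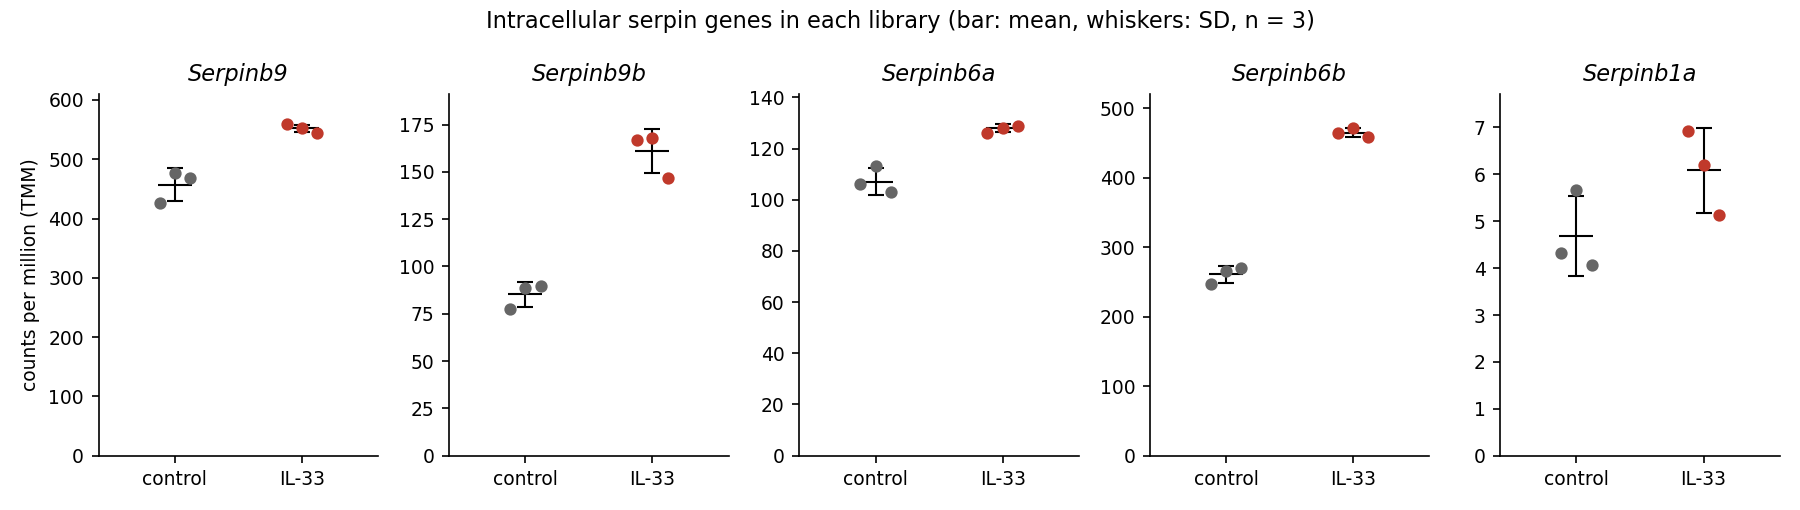
CPM of the 5 listed granzyme inhibitor genes with TMM scaling, one point per library, with the mean and SD (n = 3) of each group and axes starting at 0. Serpinb9b goes from 85.3 to 161 and Serpinb6b from 261 to 465 CPM on average, Serpinb9 and Serpinb6a rise less, and Serpinb1a is low with close groups.

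Among genes of granule packaging and processing, those called were all lower with IL-33, the gene of an inhibitor of granzyme processing included. Of 12 genes of granule packaging and processing, none rose, 6 fell and 6 did not pass, beside 13.6% higher and 13.9% lower of all genes and 51.6% called of those at 100 CPM or more. None of the 12 passed both thresholds, and the median log2 fold change was -0.078. Srgn, the proteoglycan core that holds granzymes in the granule, was at 1281 ± 53.7 CPM in control and 1268 ± 36.9 CPM with IL-33 (log2 fold change -0.015, SE 0.025). Nkg7, a granule membrane protein, fell from 604 ± 5.18 to 543 ± 16.2 CPM (-0.15, SE 0.027). The following were named after their values were seen. Ctsw, the gene of the lymphocyte cathepsin W, was at 361, 361 and 350 CPM in control and at 241, 233 and 241 CPM with IL-33, a log2 fold change of -0.58 (SE 0.031), just short of the 1.5-fold threshold. Cst7, whose product cystatin F inhibits the cathepsins that activate progranzymes, went from 503 ± 22.3 to 403 ± 14.8 CPM (-0.32, SE 0.030). Ctsc, the gene of the main progranzyme convertase cathepsin C, was at 153 ± 3.51 and 157 ± 5.93 CPM (0.041, SE 0.037).

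Genes of granule release moved in both directions. Of the 11 tested of 12, 5 rose, 2 fell and 4 did not pass, beside 13.6% higher and 13.9% lower of all genes. At 100 CPM or more, 51.6% of all genes were called in either direction. The median log2 fold change of the 11 was 0.10 and none of them passed both thresholds. Rab27a, the GTPase that docks granules at the membrane, rose from 216 ± 4.86 to 251 ± 2.40 CPM (0.22, SE 0.033). Unc13d, the priming factor, was at 195 ± 5.38 and 188 ± 7.53 CPM (-0.047, SE 0.035, and -0.014 without IL-33 replicate 3).

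Of 13 regulators of the cytotoxic programme, 8 rose, 1 fell and 4 did not pass, beside 13.6% higher and 13.9% lower of all genes. At 100 CPM or more, 51.6% of all genes were called in either direction. The median log2 fold change of the 13 was 0.073 and none of them passed both thresholds. Il2rb, the shared beta chain of the interleukin 2 and interleukin 15 receptors, was at 3110 ± 30.1 and 3249 ± 35.8 CPM (0.063, SE 0.019). Id2, an inhibitor of E proteins, was at 1022 ± 4.92 and 1075 ± 9.41 CPM (0.073, SE 0.024). Both calls were narrow: Il2rb missed the threshold with library totals (edgeR adjusted p = 0.0648), with the replicate number as a block (0.0590) and without IL-33 replicate 1 (0.0676), and Id2 with library totals (0.0666) and without IL-33 replicate 3 (0.0566). Named after their values were seen, Prdm1, the gene of the repressor Blimp-1, rose by 0.55 (SE 0.046), Runx3 by 0.42 (SE 0.032), Stat5b by 0.41 (SE 0.035) and Il2ra by 0.33 (SE 0.023) on the log2 scale. Tbx21, the gene of T-bet and also named after its values were seen, was the 1 regulator that fell, from 47.6 ± 2.40 to 39.9 ± 2.49 CPM (-0.26, SE 0.061).

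Among 13 substrates of granzymes inside target cells, 2 rose, 4 fell and 7 did not pass, beside 13.6% higher and 13.9% lower of all genes. Their median log2 fold change was -0.14 and none passed both thresholds. Hmgb2, part of the complex that granzyme A cleaves, fell from 409 ± 17.7 to 342 ± 4.15 CPM (-0.26, SE 0.030). Over all 5 lists, 19 of the 54 tested genes rose and 13 fell, beside 13.6% and 13.9% of all genes. At 100 CPM or more, 51.6% of all genes were called in either direction. Of the 54, 2 passed both thresholds, near the share of 4.87% of all genes.

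Gzma, the most abundant family gene per length, was compared over the 6 libraries with 8838 genes of at least 10 CPM on average, each centred on its own mean. The 3 genes nearest to it were Lrif1, Sap130 and Stat6, with root mean square differences of 0.010 to 0.011 on the log2 scale and log2 fold changes of -0.030, -0.053 and -0.058.

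Perforin and granzyme B were also the family genes for which the study designed primers for quantitative PCR, printed here because they fix which part of the transcript that assay reads.
Prf1 sense: ctgccactcggtcagaatg
Prf1 antisense: cggagggtagtcacatccat
Gzmb sense: ggaacacctcttctgccacc
Gzmb antisense: agcattagataacattctcgggg
Each primer matched transcripts of its own gene and of no other gene in GENCODE M21. The Prf1 pair spanned 88 bases, both primers lying in exon 2, and the Gzmb pair spanned 148 bases, both in exon 5.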

How the data were processed

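RNA of 6 cultures of sorted DNT cells was sequenced in bulk, 3 control and 3 IL-33. The deposited table held whole-number counts per Ensembl gene for each library, made by the authors, and the mean normalised signal over all libraries, which matched counts divided by median-ratio size factors and was not used. The submitters' processing notes name Bowtie 0.12.2 and the build mm8 without a role. No source used here gives the counting program, annotation, strand use or read length. The labels name a TruSeq kit, the study's methods a NEBNext kit. Separate mice or cultures are not stated for the replicates, so that p-values measure only the spread between these samples, which may be technical.

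Symbols, exon lengths and coordinates were taken from GENCODE M21 (GRCm38) by Ensembl identifier, with 26086 of 26128 identifiers matched, and promoters from RefSeq. Genes were kept by filterByExpr (minimum count 10, minimum total 15), which left 14671, and were tested with edgeR 4.0.16 (R 4.3.3; TMM, robust quasi-likelihood fit, two-sided, Benjamini-Hochberg over all genes tested), IL-33 against control. Standard errors and 95% intervals come from that fit. CPM used TMM-scaled totals, and values per group are mean ± SD. A count of 3 was worth 0.134 to 0.148 CPM. Levels per length used the merged exons of a gene. DESeq2 1.42.0, limma-voom (limma 3.58.1), other scalings and filters, a replicate block and leaving out each library were alternatives. The scripts were tested on simulated data. Unique stretches of 50, 100 and 150 bases were counted in the longest coding transcript against all other genes of GENCODE M21, in both directions. Coding and promoter identity came from global alignment with Biopython.

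The family, the 5 pathway lists and the marker lists were chosen with earlier results of these data known. The genes named were all 10 family genes, neighbours within 200 kb that passed both thresholds or were granzyme or mast cell protease genes, and in each pathway list those past both thresholds and otherwise the 2 most abundant per length. Genes named outside that rule are said to be. A gene that the rule would name is not reported here.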

Additional observations from a re-analysis of the deposited data

How the results depend on the processing

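No family gene changed direction under any alternative, and of 150 values of the 10 genes 129 kept their side of the threshold, 18 lost the call and 3 gained it. Prf1, Gzmb, Gzmc, Gzme and Gzmf kept the call under all 14 alternatives other than the test against 1.5-fold. That test asks whether a change exceeds 1.5-fold. It left 113 of the 714 genes past both thresholds and none of the family, with adjusted p of 1.00 for log2 fold changes of 0.10 (Prf1), -0.044 (Gzma), -0.12 (Gzmb), -0.17 (Gzmc), -0.12 (Gzme), -0.21 (Gzmf) and -0.076 (Gzmg). Gzma lost the call with DESeq2 (-0.044, adjusted p = 0.110), without a filter on low counts (-0.043, adjusted p = 0.0556), and in most fits that left out 1 library (from -0.053 to -0.030). Gzmg ranged from -0.11 to -0.042. Gzmd, at -0.13, gained the call with limma-voom (adjusted p = 2.2e-04) and without a filter (adjusted p = 0.0104). The cause was not tested.

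The labels do not say whether equal replicate numbers mark a pairing. Over all genes tested, the deviations of same-numbered libraries correlated at 0.0116, 0.00317 and 0.0107. These values cannot decide it, because noisy genes with low counts weigh as much in them as abundant ones. With the number as a replicate block 666 genes passed both thresholds, Gzma (-0.044, adjusted p = 0.179) lost the call and Gzmd (-0.13, adjusted p = 6.4e-04) gained it. Srgn, not called, ranged from -0.049 to 0.0083 when 1 library was left out, turning positive without the third library of either group (0.0083 and 0.0061). Pathway genes past both thresholds were 2 to 4 when 1 library was left out, 4 without control replicate 3, when Ctsw and Prdm1 were added.

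With protein coding counts as the denominator the family share was 4.82% in control and 4.49% with IL-33, and without mitochondrial genes 4.78% and 4.46%. With the length of the longest coding transcript, which shortens other genes more, control levels were 1659 TPM for Prf1, 36128 for Gzma, 26203 for Gzmb, 9088 for Gzmc, 8395 for Gzmd, 3051 for Gzme, 966 for Gzmf, 7610 for Gzmg and 22.4 for Gzmk. Low counts limited Gzmm most, at 17 to 38 counts. Gzmk, at 252 to 312 counts, had an interval from -5.48 to 26.3%, which takes in a change as large as that of Prf1, 7.45%. Scaling by library totals shifted the median of all genes by under 0.1 on the log2 scale.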
